A study of Mus musculus with 6 samples.

Results

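Messenger RNA of 7 genes of cytosolic DNA sensing and of its TBK1 arm was examined in RAW264.7, a mouse macrophage-like line. The genes encode the DNA sensor cGAS (listed under its older name Mb21d1), the adaptor STING (listed as Tmem173), the DNA exonuclease TREX1, the kinases TBK1 and IKKε (gene Ikbke), the transcription factor IRF3, and TRIF (gene Ticam1), the adaptor of Toll-like receptors 3 and 4. They were picked by gene name for their place in the pathway, with earlier results of these data known, and make up 7 of the 54532 genes in the deposited table. The study was designed to find genes that differ after knockdown of ERMAP, a membrane protein of the butyrophilin family. Bulk RNA sequencing covered 3 libraries labelled as an ERMAP knockdown by lentiviral shRNA and 3 libraries labelled wild type, called control here. All 6 come from the same cell line, and no non-targeting shRNA is described. The treatment protocol names the ERMAP lentivirus for all 6 samples, so the labels do not settle whether control cells were transduced. They do not say whether replicates were separate cultures either, so the p-values describe library-to-library spread, which could be purely technical.

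cGAS binds double-stranded DNA in the cytosol and makes the cyclic dinucleotide cGAMP, which binds STING on the endoplasmic reticulum. STING then moves to the Golgi and recruits TBK1, which phosphorylates STING and IRF3, and IRF3 enters the nucleus and switches on type I interferon and related genes. TREX1 degrades cytosolic DNA ahead of the sensor, IKKε is the close relative of TBK1, and TRIF brings endosomal and surface Toll-like receptors to the same kinases. Much of this control acts on the proteins, which mRNA libraries do not measure.

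Summed counts ranged from 13447021 to 15116705 in libraries labelled ERMAP shRNA and from 14478988 to 16602734 in control libraries. Counts of Ermap, the targeted gene, were 10, 21 and 14 in libraries labelled ERMAP shRNA, against 12, 12 and 3 in control libraries. Its fitted log2 fold change was 0.81 (95% interval -0.38 to 2.01, adjusted p = 0.929 by edgeR's quasi-likelihood test), so a lower Ermap level was not detected in the libraries that carry the knockdown label. Control library 1 stood apart from the other libraries: 3.69% of its counts were mitochondrial, against 1.71% to 2.18% in the other 5 libraries, and results that turn on it are given with and without it. Of 10 macrophage identity genes, 9 were detected and Mertk had 0 counts in all 6 libraries. Their summed level, most of it Lyz2 and Csf1r, was 7310 to 7480 CPM (counts scaled to library size) in libraries labelled ERMAP shRNA and 7130 to 7410 CPM in control libraries. Fcgr1, an Fc receptor gene named after its values were seen, was the 1 identity gene called, higher by edgeR at a log2 fold change of 1.64 (adjusted p = 0.000116). Markers of other cell types were near absent: 22 of 38 had no count in any library, and the highest summed list reached 6.74 CPM. This dendritic cell list summed to 2.73 to 2.86 CPM in libraries labelled ERMAP shRNA and 5.6 to 6.74 CPM in controls. The T cell list went the other way, at 2.32 to 4.13 CPM in libraries labelled ERMAP shRNA and 1.52 to 1.94 CPM in controls. In bulk RNA, fewer cells of a type and less RNA per cell cannot be told apart.

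Of the 7 genes, 6 passed the filter on low counts, and 0 of these were called higher or lower at an adjusted p under 0.05 in edgeR. Over all 12491 genes tested, 1.01% were called higher and 0.136% lower. Before adjustment, 3 of the 6 were higher and 0 were lower at p under 0.05, where 3.71% and 3.04% of all genes tested were, and DESeq2 called 1 of the 6 higher (Mb21d1), with 1.16% of all genes called higher and 0.361% lower in that fit. The same 3 genes, Mb21d1, Tmem173 and Ikbke, had CPM values that did not overlap between the groups, all with the libraries labelled ERMAP shRNA higher. Of all genes tested, 7.74% showed that separation with those libraries higher and 6.47% with them lower. The median log2 fold change of the 6 genes was 0.28, against -0.01 over all genes tested, and 4 of the 6 were positive.

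**Figure D1:**
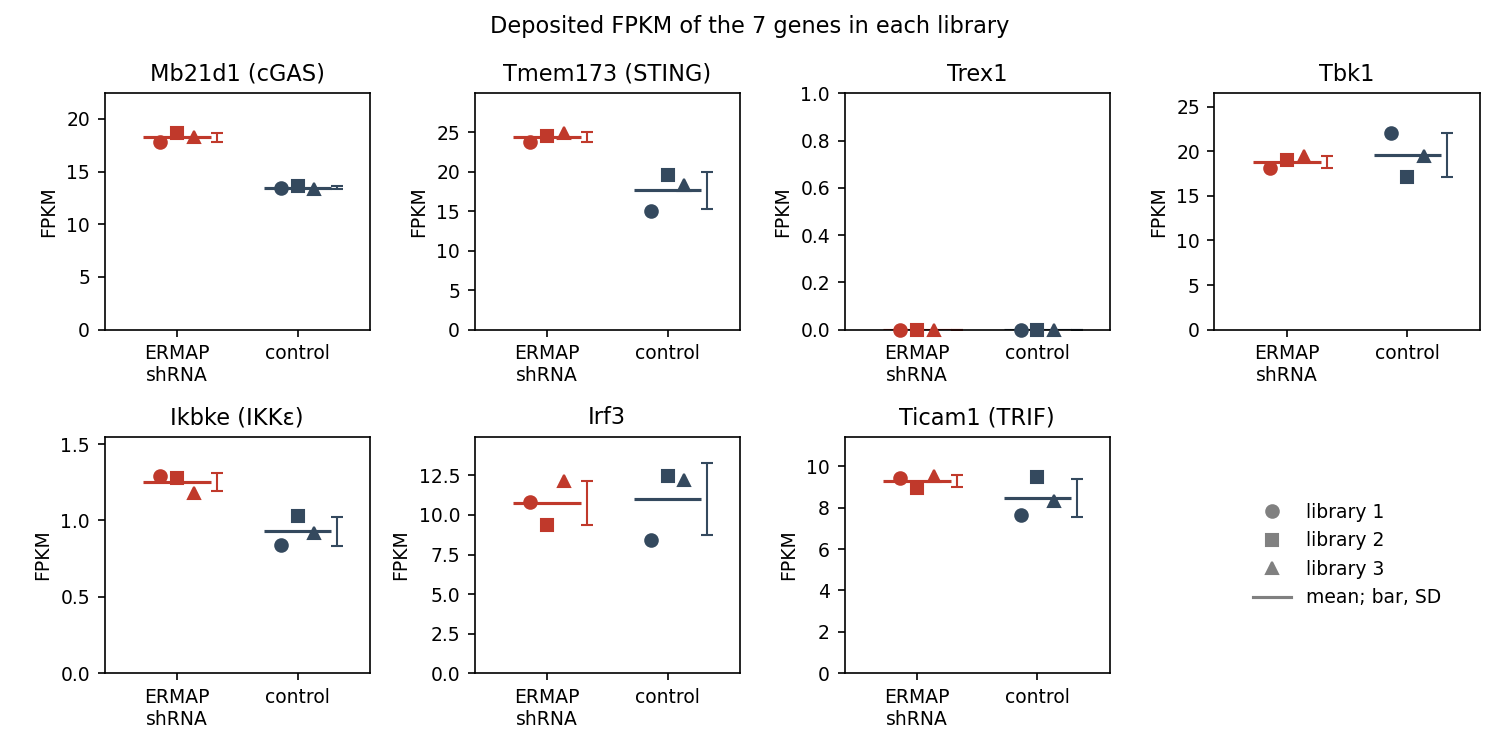
Deposited FPKM (read counts scaled by gene length and library size) of the 7 genes on the vertical axes, each with its own scale, in libraries labelled ERMAP shRNA (left) and control (right). Marker shapes give the library number, and lines and bars give mean and SD. Mb21d1 (18.25 against 13.47), Tmem173 (24.43 against 17.68) and Ikbke (1.25 against 0.928) do not overlap between groups, and Trex1 lies at 0 in all 6 libraries.

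The sensor gene Mb21d1 (ENSMUSG00000032344, mm10, chr9:78430526-78443237, minus strand) had 17.79, 18.68 and 18.27 FPKM in libraries labelled ERMAP shRNA, against 13.42, 13.65 and 13.36 FPKM in control libraries. These values rest on 991, 1163 and 1138 counts in libraries labelled ERMAP shRNA and 811, 943 and 840 counts in control libraries. All libraries labelled ERMAP shRNA lay above all control libraries, and the spread within each group was small. The means were 18.25 ± 0.448 FPKM in libraries labelled ERMAP shRNA and 13.47 ± 0.157 FPKM in controls (SD, n = 3 each). The fitted log2 fold change was 0.43 with an SE of 0.09 (95% interval 0.23 to 0.63, 1.35-fold), and the adjusted p of 0.0738 in edgeR missed the threshold. Control library 1 differed by -0.001 from the mean of the other controls on the log2 scale for this gene. Without it the fold change stayed at 0.43 and the adjusted p was 0.000605 in edgeR. That fit called 2.67% of all genes higher and 2.19% lower. With any 1 other library left out instead, Mb21d1 was not called (adjusted p 0.208 to 0.469 in edgeR).

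The adaptor gene Tmem173 (ENSMUSG00000024349, chr18:35733678-35740554, minus strand) had 23.74, 24.59 and 24.95 FPKM in libraries labelled ERMAP shRNA, against 15.06, 19.62 and 18.35 FPKM in control libraries. The groups did not overlap, and control library 1 was the lowest of the 6. The log2 fold change was 0.46 with an SE of 0.12 (95% interval 0.19 to 0.74), with an adjusted p of 0.223 in edgeR. Control library 1 differed by -0.325 from the mean of the other controls on the log2 scale. Without that library the difference was 0.36 (95% interval 0.18 to 0.53) with an adjusted p of 0.00902 in edgeR. Tmem173 was not called when any 1 other library was left out (adjusted p 0.211 to 0.784 in edgeR).

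Tbk1 and Ikbke, which encode related kinases, differed in level and in the separation of the groups. Tbk1 (ENSMUSG00000020115, chr10:121546455-121586787, minus strand) had 18.11, 18.98 and 19.42 FPKM in libraries labelled ERMAP shRNA, against 22.06, 17.13 and 19.50 FPKM in control libraries. The groups overlapped fully, since the control libraries held both the highest and the lowest value. The log2 fold change was -0.06 with an SE of 0.11 (95% interval -0.33 to 0.21, adjusted p = 0.952 in edgeR), and 0.03 without control library 1.

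Ikbke (ENSMUSG00000042349, chr1:131254343-131279606, minus strand) had 1.289, 1.279 and 1.183 FPKM in libraries labelled ERMAP shRNA, against 0.8401, 1.027 and 0.9167 FPKM in control libraries. It was the least abundant of the 6 detected genes per length, with 157, 174 and 161 counts in libraries labelled ERMAP shRNA and 111, 155 and 126 counts in controls. The groups did not overlap, but the log2 fold change of 0.42 (SE 0.14, 95% interval 0.09 to 0.76) had an adjusted p of 0.466 in edgeR. Without control library 1 the log2 fold change was 0.35 (adjusted p = 0.225 in edgeR). Within a library, the ratio of Ikbke to Tbk1 FPKM was 0.0712, 0.0674 and 0.0609 in libraries labelled ERMAP shRNA, against 0.0381, 0.06 and 0.047 in control libraries. That ratio and 4 others were compared by exact two-sided permutation tests, in which groups of 3 cannot give a p below 0.1. The Ikbke to Tbk1 ratio reached this smallest p of 0.1 (0.167 adjusted over the 5 ratios), as did Mb21d1 to Tbk1 and Tmem173 to Tbk1. The ratios of Mb21d1 to Tmem173 and of Irf3 to Tbk1 overlapped between groups (p = 1.0 each in the exact permutation test).

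The transcription factor gene Irf3 (ENSMUSG00000003184, chr7:44997648-45002848, plus strand) had 10.80, 9.377 and 12.15 FPKM in libraries labelled ERMAP shRNA, against 8.407, 12.44 and 12.18 FPKM in control libraries. The groups overlapped, and control library 1 gave the lowest value. The log2 fold change was -0.04 with an SE of 0.17 (95% interval -0.44 to 0.37, adjusted p = 0.978 in edgeR). It was -0.20 without control library 1 (adjusted p = 0.328), and positive without control library 2, control library 3 or ERMAP shRNA library 2, up to 0.06.

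Ticam1 (ENSMUSG00000047123, chr17:56269319-56276786, minus strand), the gene of the adaptor TRIF, had 9.430, 8.971 and 9.522 FPKM in libraries labelled ERMAP shRNA, against 7.664, 9.483 and 8.311 FPKM in control libraries. The ranges overlapped by control library 2 alone. The log2 fold change was 0.13 with an SE of 0.12 (95% interval -0.15 to 0.40, adjusted p = 0.937 in edgeR) and 0.06 without control library 1.

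**Figure D2:**
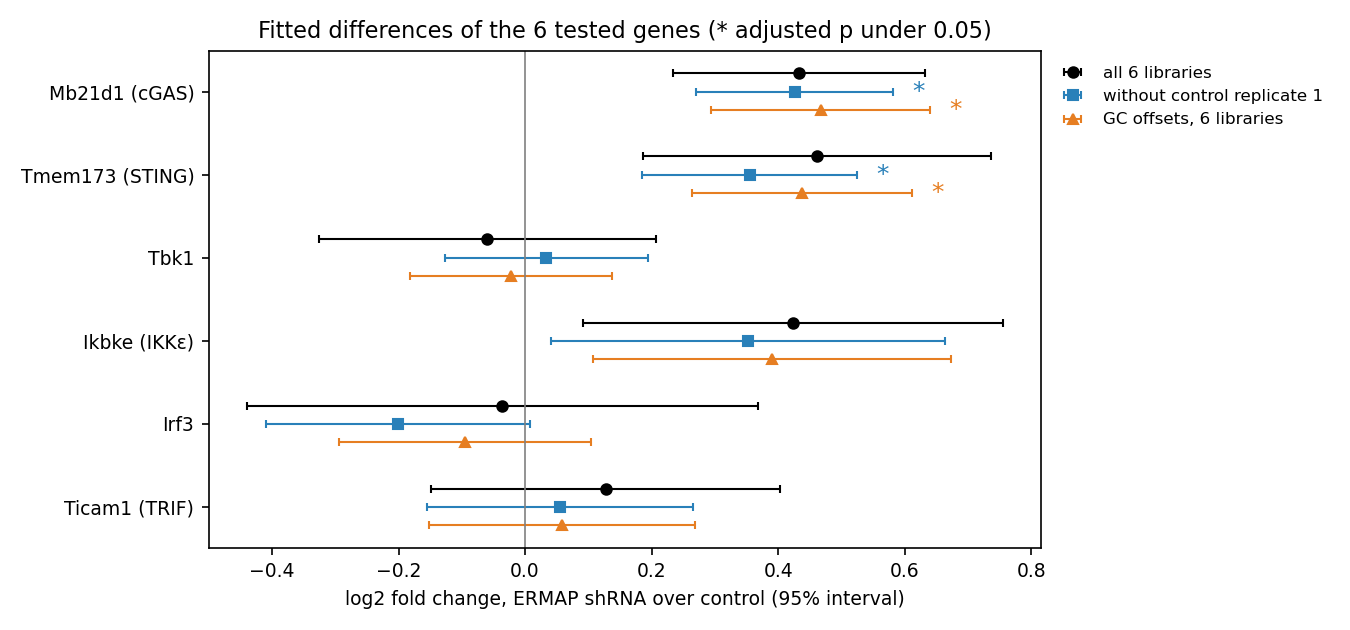
Fitted log2 fold change of ERMAP shRNA over control (horizontal axis) with 95% intervals for the 6 tested genes. Marker shapes give the fit: all 6 libraries, without control library 1, and all 6 libraries with offsets for GC content. Asterisks mark an adjusted p under 0.05. Intervals of Mb21d1 (0.23 to 0.63), Tmem173 (0.19 to 0.74) and Ikbke (0.09 to 0.76) lie above 0 with all libraries. Those of Tbk1 (-0.33 to 0.21), Irf3 (-0.44 to 0.37) and Ticam1 (-0.15 to 0.40) span it.

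Deviation of control library 1 from the mean of the other controls ran from -0.542 (Irf3) to 0.281 (Tbk1) on the log2 scale over the 6 genes. Transcript GC content of these genes was 56.6% for Irf3 and 47.5% for Tbk1, and 47.0% for Mb21d1, the gene with the smallest deviation. It was 56.4% for Ticam1 (deviation -0.203), 53.1% for Ikbke (-0.199) and 52.3% for Tmem173 (-0.325). All genes at 52.3% GC or more had negative deviations, though not ordered by GC content. Mb21d1 and Tbk1, lower in GC content, had -0.001 and 0.281. Whether GC content accounts for the deviations was not tested. With offsets for GC content, Mb21d1 (0.47, adjusted p = 0.00743) and Tmem173 (0.44, adjusted p = 0.0119) were called higher in edgeR, in a fit that called 2.03% of all genes higher and 1.02% lower, and the part of GC content in these differences was not tested. In order of level per length, libraries labelled ERMAP shRNA had Tmem173 above Tbk1 and Mb21d1, which overlapped, then Irf3 and Ticam1, which overlapped, then Ikbke. Control libraries had Tbk1 and Tmem173, which overlapped, then Mb21d1, then Irf3 and Ticam1, which overlapped, and Ikbke last. The deposited length of Tmem173 was 2302 bases, against 2741 exon bases in GENCODE vM21. Its place in these orders can therefore depend on the length used.

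Trex1 (ENSMUSG00000049734, chr9:109057933-109059734, minus strand) had 0 counts in all 6 libraries and could not be tested. All 1147 of its exon bases lie inside exons of Atrip on the same strand in the GENCODE vM21 annotation. Atrip encodes the partner of the checkpoint kinase ATR. The first 90 coding bases of Trex1 are shown because they occur in 3 of the 9 annotated Atrip transcripts as well. They lie at chr9:109058832-109058921 on the minus strand (mm10), and capitals mark the start codon.
Trex1 coding start: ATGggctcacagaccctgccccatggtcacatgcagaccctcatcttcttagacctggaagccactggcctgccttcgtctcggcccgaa
The whole coding sequence without its stop codon, 942 bases, occurs in 2 Atrip transcripts. A read from it cannot be assigned to Trex1 rather than Atrip by position alone, so a count of 0 gives no limit on the Trex1 mRNA. Among protein-coding genes whose exon bases are all shared with a gene on the same strand, 119 of 133 (89.5%) had 0 counts in all 6 libraries. Among those with no shared exon base, 6525 of 15460 (42.2%) did. Atrip itself had 386, 361 and 354 counts in libraries labelled ERMAP shRNA and 377, 397 and 346 counts in control libraries. Its log2 fold change was 0.07 (95% interval -0.23 to 0.36, adjusted p = 0.952 in edgeR), and any Trex1 reads that were counted as Atrip cannot be told apart from its own. Shared exon bases were few for the other genes, at 4.9% for Mb21d1, 2.6% for Irf3 and 2.5% for Ikbke, all with genes on the opposite strand, and none for Tbk1, Ticam1 and Tmem173.

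**Figure D3:**
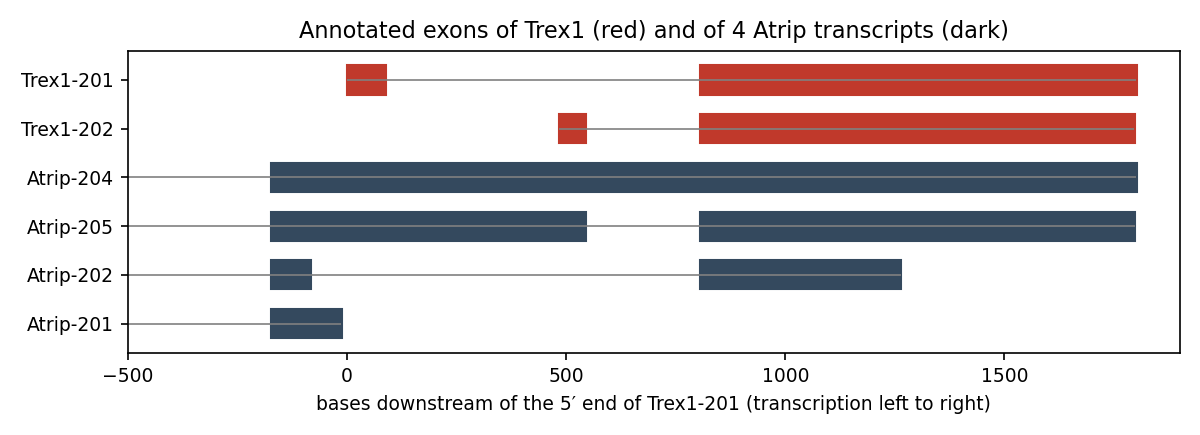
Map of Trex1 and of the 4 Atrip transcripts drawn at its locus, with distance in bases from the 5′ end of the Trex1 transcript on the horizontal axis and exons as boxes. All 1147 exon bases of Trex1 fall inside Atrip exons.

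Promoter windows were read for 6 of the 7 genes from RefSeq (GRCm38.p6, the mm10 sequence), each 300 bases long, ending 50 bases after the annotated start. No window was at hand for Tmem173, which also separated between the groups, so its promoter was not searched. The windows of Mb21d1, Ikbke and Tbk1 are shown because Mb21d1 and Ikbke separated between the groups and Tbk1, the kinase closest to Ikbke, did not. Capitals mark a match to the short IRF site AANNGAAA on either strand.
Mb21d1 promoter, chr9:78443188-78443487, minus strand: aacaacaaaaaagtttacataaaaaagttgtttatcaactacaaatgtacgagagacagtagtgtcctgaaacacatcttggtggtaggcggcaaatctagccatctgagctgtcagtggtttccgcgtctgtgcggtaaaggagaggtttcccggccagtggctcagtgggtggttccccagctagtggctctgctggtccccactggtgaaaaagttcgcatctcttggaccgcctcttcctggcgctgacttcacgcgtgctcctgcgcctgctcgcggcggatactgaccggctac
Ikbke promoter, chr1:131279514-131279813, minus strand: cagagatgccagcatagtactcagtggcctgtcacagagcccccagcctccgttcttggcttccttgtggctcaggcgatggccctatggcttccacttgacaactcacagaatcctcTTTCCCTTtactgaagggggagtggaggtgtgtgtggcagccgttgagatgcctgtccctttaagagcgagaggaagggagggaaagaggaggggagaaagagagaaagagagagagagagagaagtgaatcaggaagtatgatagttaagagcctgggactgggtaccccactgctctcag
Tbk1 promoter, chr10:121586745-121587044, minus strand: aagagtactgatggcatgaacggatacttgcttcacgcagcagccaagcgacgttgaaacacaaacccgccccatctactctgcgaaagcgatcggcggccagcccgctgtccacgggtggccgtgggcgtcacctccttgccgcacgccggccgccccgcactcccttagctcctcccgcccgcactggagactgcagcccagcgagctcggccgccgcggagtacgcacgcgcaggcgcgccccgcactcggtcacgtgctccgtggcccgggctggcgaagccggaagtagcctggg
The Mb21d1 window held 16 CpG dinucleotides at 53.0% GC, the Ikbke window 4 at 54.0% and the Tbk1 window 37 at 69.0%, where the median window of all 32851 held 7 at 52.7%. Of 4 motifs searched on both strands, the interferon-response core (GAAA, any 2 bases, GAAA), the STAT element TTCNNNGAA and the kappa-B motif (GGGA, any 1 base, TTTCC) matched none of the windows of the 6 genes. They occur in 3.4%, 8.3% and 0.4% of all windows. The short IRF site AANNGAAA, which the interferon-response core contains, matched in the Ikbke window alone, on the reverse strand 132 bases before the start, and occurs in 23.9% of all windows.

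Around the 7 genes, 99 others were listed by their role in the pathway, of which 91 passed the filter on low counts. The lists were drawn up with earlier results of these data known. Shares of all genes beside their counts are therefore a description and not a test. Of these 91, 15 rose and 0 fell in edgeR (1.01% and 0.136% of all genes tested), with a median log2 fold change of 0.09. Before adjustment 27 were higher at p under 0.05 and 0 were lower (3.71% and 3.04% of all genes tested). DESeq2 called 20 higher and 0 lower (1.16% and 0.361% of all genes in that fit). Without control library 1 edgeR called 23 higher and 0 lower (2.67% and 2.19% of all genes in that fit). The 8 that did not pass it, named after their values were seen, were Dnase1l3, Enpp1, Zcchc3, Optn, Calcoco2, Ifnb1, Ifna4 and Gbp2. Without the filter, Dnase1l3, Optn, Ifnb1 and Gbp2 were also tested in edgeR and were not called (adjusted p 0.153 for Gbp2 to 0.933 for Dnase1l3).

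Upstream, 1 of 10 tested nuclease and nucleic-acid clearance genes rose (median 0.08, and -0.06 without control library 1). It was Adar, an RNA-editing enzyme that marks self double-stranded RNA, at 25.8 ± 0.792 FPKM in libraries labelled ERMAP shRNA and 11.5 ± 1.14 FPKM in controls (SD, n = 3 each). Its log2 fold change was 1.16 (SE 0.10, adjusted p = 0.00083 in edgeR). Banf1, which coats DNA and keeps cGAS off it, was the most abundant of this group at 193.5 FPKM in libraries labelled ERMAP shRNA and 179.5 FPKM in controls (log2 fold change 0.10, adjusted p = 0.949). Without control library 1, edgeR called 2 of the group higher, with Samhd1 the added gene.

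Of 20 tested cofactors and trafficking proteins of cGAS and STING, 0 were called in edgeR (median 0.06). Before adjustment 3 were higher at p under 0.05 and 0 were lower (3.71% and 3.04% of all genes tested). The 3, named here after their values were seen, were Trim56, Ifi204 and Rhbdf2. DESeq2 called 1 higher, Ifi204, as did edgeR without control library 1. Ssr2, a translocon subunit and the most abundant of them, had 116.6 ± 4.89 FPKM in libraries labelled ERMAP shRNA and 102.3 ± 15.6 FPKM in controls (log2 fold change 0.18, 95% interval -0.10 to 0.47, adjusted p = 0.934).

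Of 18 tested scaffolds and regulators of TBK1, 1 rose (median -0.01). It was Trafd1, a TRAF-type zinc finger protein that dampens innate signalling, at 13.0 ± 0.898 FPKM in libraries labelled ERMAP shRNA and 5.69 ± 1.00 FPKM in controls. Its log2 fold change was 1.18 (SE 0.15, adjusted p = 0.00736 in edgeR), and the call was lost without ERMAP shRNA library 1 (0.0561) or 3 (0.0621). Without control library 1 the count was 2, with Tnfaip3 added. Ddx3x, a helicase that binds TBK1 and IKKε, was the most abundant at 95.2 ± 2.27 FPKM in libraries labelled ERMAP shRNA and 96.3 ± 21.1 FPKM in controls (adjusted p = 0.984).

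Among 18 tested receptors and adaptors that feed into TBK1, 5 rose and 13 were not called (median 0.02). Ddx58, which encodes the RNA sensor RIG-I, had 14.59, 15.92 and 15.82 FPKM in libraries labelled ERMAP shRNA, against 1.888, 1.991 and 1.61 FPKM in control libraries. The groups lay far apart, with a log2 fold change of 3.07 (SE 0.12, adjusted p = 7.42e-06 in edgeR). Dhx58 (LGP2, a regulator of RIG-I and MDA5) had a log2 fold change of 2.88 (adjusted p = 0.000215) and Ifih1, which encodes the RNA sensor MDA5, of 2.38 (adjusted p = 0.00503). Tlr3, the endosomal RNA receptor that signals through TRIF, averaged 1.24 ± 0.0705 FPKM in libraries labelled ERMAP shRNA and 0.455 ± 0.153 FPKM in controls (log2 fold change 1.45, adjusted p = 0.045 in edgeR). Tlr4, also a receptor of TRIF and named after its values were seen, was not called (log2 fold change -0.45, adjusted p = 0.811 in edgeR). Its CPM values did not overlap between groups, with libraries labelled ERMAP shRNA lower (means 47.9 and 65.4 CPM). Trim25, a ubiquitin ligase of the RIG-I pathway, averaged 63.0 ± 1.44 FPKM in libraries labelled ERMAP shRNA and 44.0 ± 1.39 FPKM in controls (log2 fold change 0.51, adjusted p = 0.0255 in edgeR). The calls of Tlr3 (adjusted p up to 0.236) and Trim25 (up to 0.232) were each lost when any 1 library other than control library 1 was left out, which left 3 of 18 called.

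Of 15 tested partners and relatives of IRF3, 2 rose (median 0.25). Irf7, the interferon regulatory factor that amplifies the interferon response, had 34.51, 31.22 and 35.43 FPKM in libraries labelled ERMAP shRNA, against 0.5784, 1.44 and 1.703 FPKM in control libraries. Irf7 had a log2 fold change of 4.75 (SE 0.31, adjusted p = 0.000195 in edgeR), where Irf3 had -0.04. Irf9, the DNA-binding part of the complex that answers interferon, had a log2 fold change of 2.01 (SE 0.11, adjusted p = 4.51e-05). Irf5, the most abundant of the group, had 64.4 ± 2.57 FPKM in libraries labelled ERMAP shRNA and 60.9 ± 9.03 FPKM in controls (log2 fold change 0.08, adjusted p = 0.949). Without control library 1, 4 of the group were called higher, with Trim21 and Herc6 added.

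Of 11 tested transcripts known to respond to IRF3 or to interferon, 7 rose (median 2.38) and 10 were called higher without control library 1. Pmaip1, named after its values were seen, went the other way without a call (log2 fold change -0.29, adjusted p = 0.893 in edgeR). Its CPM values did not overlap between groups, with libraries labelled ERMAP shRNA lower (means 36.7 and 44.8 CPM). Isg15, a ubiquitin-like modifier, had 19.69, 13.59 and 22.79 FPKM in libraries labelled ERMAP shRNA, against 0.1806, 1.343 and 0.9546 FPKM in control libraries (log2 fold change 4.45, SE 0.45, adjusted p = 0.00218 in edgeR). Rsad2, the antiviral enzyme viperin, had 66, 82 and 71 counts in libraries labelled ERMAP shRNA, against 0, 4 and 2 counts in control libraries (log2 fold change 5.20, adjusted p = 0.0014). Ifit1 (4.56, adjusted p = 0.00767) and Ifit3 (4.72, adjusted p = 0.0035), whose proteins bind viral RNA or other IFIT proteins, share sequence with related genes of their cluster, so reads may be split among them. Besides Ifih1, which stands in this group too, Oasl1 (1.71, adjusted p = 0.000179) and Ifit2 (0.81, adjusted p = 0.0402) completed the 7, both named after their values were seen. The Ifit2 call was lost without control library 2 or 3 and without each ERMAP shRNA library. The Ifit1 call was lost without ERMAP shRNA library 2 (adjusted p = 0.0555). Zc3hav1, an antiviral zinc finger protein and the most abundant here on average, was not called with all libraries (33.6 ± 1.34 FPKM in libraries labelled ERMAP shRNA, 25.2 ± 3.39 FPKM in controls, adjusted p = 0.279). Without control library 1 Zc3hav1 was called higher (log2 fold change 0.52, adjusted p = 1.08e-05 in edgeR), as it was with GC offsets (0.42, adjusted p = 0.0372). The other 2 genes added without that library, named after their values were seen, were the chemokine genes Cxcl10 (1.76, adjusted p = 0.00238, against 1.49 and 0.22 with all libraries) and Ccl5 (2.03, adjusted p = 0.0102, against 2.38 and 0.0696 with all libraries). Ifnb1, which encodes interferon beta, had 2, 0 and 5 counts in libraries labelled ERMAP shRNA and 0 in every control library. It did not pass the filter, and without the filter edgeR gave an adjusted p of 0.825. Of its 7 counts, 5 came from ERMAP shRNA library 3.

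**Figure D4:**
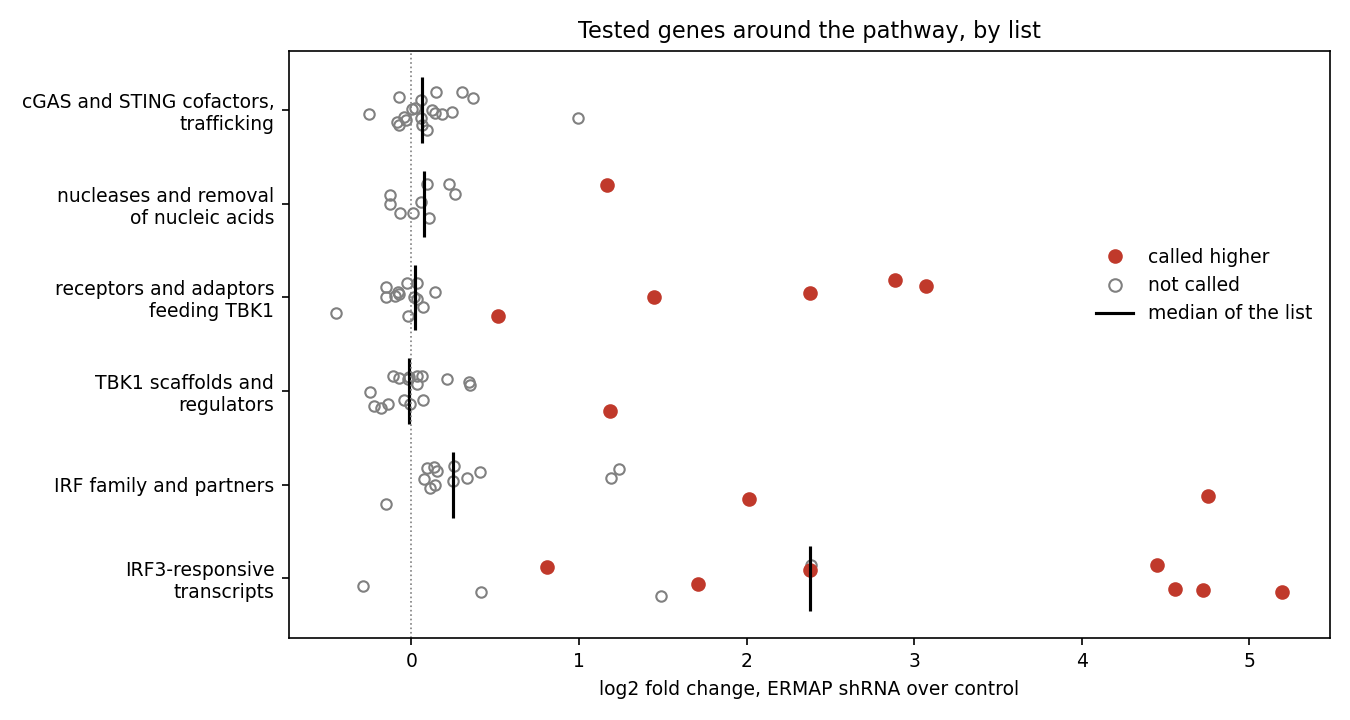
Log2 fold change of ERMAP shRNA over control (horizontal axis) for each tested gene of 6 role groups, with filled points for genes called higher and bars for medians. The group labelled IRF3-responsive, whose transcripts respond to IRF3 or to interferon, has a median of 2.38 with 7 of 11 called. The cofactor group has a median of 0.06 with 0 of 20 called. Over all genes tested, 1.01% were called higher.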

How the data were processed

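HISAT2 and the build mm10 are named in the submitters' processing notes. For the read counter, its strand setting, the annotation release and versions, the sources used here give nothing. Library preparation used an NEBNext Ultra RNA kit, per the labels. The authors deposited whole-number counts per gene and library for 54532 genes, and FPKM values per library. In the deposited file FPKM equals the count per gene length and per 1 constant per library, which lies within -0.154% to 1.20% of the summed count. Column names give each library's group and number but could not be tied to single samples.

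Counts were tested with edgeR 4.0.16 in R 4.3.3 (quasi-likelihood, TMM, filterByExpr with a minimum count of 10, robust fit) over 12491 genes with the 6 libraries, and p-values were adjusted by Benjamini-Hochberg over all of them. A gene was called, and is said to rise or fall, at an adjusted p under 0.05. Fold changes are ERMAP shRNA over control on the log2 scale. On simulated data with 200 changed genes of 12491, drawn once, the test recovered 20.9% of 1.5-fold, 65.7% of 2-fold and 98.5% of 4-fold changes, and 4.7% of its calls were false.

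The genes, the lists of related genes and the markers were chosen with earlier results of these data known. From each list, called genes averaging at least 1 CPM (up to the 5 largest changes) and the most abundant gene are named. For each of the 6 tested genes, the 3 protein-coding genes (at least 5 CPM on average) with the highest correlation are named. The short IRF site was added after the other 3 motifs had been searched. The comparison was repeated with DESeq2 1.42.0, limma-voom (limma 3.58.1), RLE and upper-quartile scaling, no count filter, FPKM on the log2(FPKM + 1) or log2(FPKM + 0.1) scale in limma-trend, a replicate block, GC offsets, and each library left out in turn. Exon overlaps and GC content came from GENCODE vM21.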

Additional observations from a re-analysis of the deposited data

How the results depend on the processing

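Over all genes, 126 were called higher and 17 lower. The higher count was 81 with log2(FPKM + 1) without a filter, 81 with a replicate block, 254 with GC offsets, and 73 (without ERMAP shRNA library 3) to 342 (without control library 1) when a library was left out. The lower count was 58 with DESeq2, 32 without a filter, 9 with log2(FPKM + 0.1), 5 with log2(FPKM + 1) without a filter, 3 with the block, 128 with GC offsets, and 3 to 280 with a library left out. Of the 7 genes, DESeq2 called 1 higher, GC offsets 2, and the fits without 1 library 0 to 2, the 2 without control library 1, while 0 were called with the block. Mb21d1 was called at 0.44 with DESeq2 and 0.47 with GC offsets, and ranged from 0.41 to 0.45 with a library left out. Tmem173 was called at 0.44 with GC offsets, and ranged from 0.36 to 0.54 with a library left out. With a library left out Irf3 ranged from -0.201 to 0.0567 and Tbk1 from -0.152 to 0.0339, changing sign without a call. Ikbke and Ticam1 kept their sign and were not called in the 16 alternatives. Trex1 gave no value in any. Ddx3x, at -0.02, was 0.0014 with limma-voom, 0.0048 with log2(FPKM + 1) with and without a filter, 0.0050 with log2(FPKM + 0.1), 0.0004 with the block, 0.098 with GC offsets and -0.157 to 0.160 with a library left out. Banf1 ranged from -0.0474 to 0.196 and Irf5 from -0.0444 to 0.142 there, all 3 with the sign change without control library 1. Of the 13 called list genes named by the rule above, 8 were called in all 16 alternatives, 5 were lost in some and 0 changed sign. The 5 were Tlr3 (called in 7 of the 16), Trim25 (9), Trafd1 (13), Ifit1 (15) and Rsad2 (15). The causes were not tested.

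Same-numbered libraries of the groups had correlations of their deviations of -0.292, -0.537 and 0.411 over 9857 genes. These are deviations from means of 3 libraries, and control library 1 stood apart. The correlations therefore cannot show whether same-numbered libraries share a culture or day. With 3 libraries a group, simulated 1.5-fold changes were recovered at 20.9%, and the fitted differences of Mb21d1, Tmem173 and Ikbke are below that size. That rate is for genes drawn at random from all those tested. It was not worked out for these genes, whose own rate may differ.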

Other observations

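The genes whose level followed each of the 6 tested genes most closely over the 6 libraries were taken from 9382 protein-coding genes, as a description, since the libraries share the same grouping and depths. For Mb21d1 they were Ly6e, Ddx58 and Lgals9 (Pearson r 0.998 each), all called higher in edgeR with log2 fold changes of 1.13, 3.07 and 4.87. For Tmem173 they were Shisa5 (r 0.999), Cd74 (0.998) and Slc2a6 (0.995), with log2 fold changes of 0.56, 0.42 and 0.64 and no call. Shisa5, which encodes an endoplasmic reticulum membrane protein, averaged 143.7 CPM in libraries labelled ERMAP shRNA and 97.6 CPM in controls (adjusted p = 0.148 in edgeR). Cd74, the invariant chain of class II antigen presentation, averaged 432.7 CPM in libraries labelled ERMAP shRNA and 323.7 CPM in controls (adjusted p = 0.162 in edgeR).

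For Tbk1 the closest genes were Mtr (r 0.995), Galnt7 and Rc3h1 (0.992 each). For Ikbke they were Ppif (0.993), Fam234b (0.987) and Ppfia4 (0.984). For Irf3 they were Gtf2h5 (0.998), Cchcr1 (0.991) and Bckdha (0.989), and for Ticam1 Fdx1 (0.998), Agpat4 (0.995) and Ap4m1 (0.992).

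Of 35 protein-coding genes whose exon bases are all covered by a gene on the opposite strand alone, 35 had 0 counts in all 6 libraries.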
